A study of Mus musculus with 12 samples.

Results

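Chaperones and proteases of mitochondria, represented by 10 nuclear genes, were followed in hearts of mice with loxP-flanked Rexo2, with and without an allele labelled Ckmm. All 10 were chosen by function, and all 10 were found by symbol among the 54751 features of the count table, of which 18250 passed a filter on low values (a mean of at least 10 normalised counts) and were tested. The 10 genes passed that filter in both groups. They are the matrix chaperone genes Hspd1, Hspe1 and Hspa9, the ClpXP genes Clpp and Clpx, the m-AAA protease genes Afg3l2 and Spg7, and the protease genes Yme1l1, Oma1 and Htra2.

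The measurement was sequencing of total RNA from hearts of C57BL/6N mice aged 52 weeks, 3 libraries per group. Both groups carry Rexo2 alleles flanked by loxP sites (Rexo2loxP/loxP). The knockout group carries in addition 1 copy of an allele the labels call Ckmm, after the creatine kinase gene of muscle. Its promoter is a common driver of Cre in striated muscle, including that of the heart. Cells of the heart other than muscle cells would keep Rexo2 under such a promoter, no group carries the Ckmm allele with an intact Rexo2, and an effect of the allele itself cannot be told apart from loss of Rexo2. Another 6 libraries of the series, PARE libraries of RNA ends in heart mitochondria, were not analysed here. The count table names libraries by group and a number, such as control 490, and no label ties a library to its own animal, so p-values measure the spread between these libraries, which may be partly technical.

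Most mitochondrial proteins are made in the cytosol, imported unfolded and folded inside the organelle. In the matrix, mitochondrial HSP70 (Hspa9) pulls proteins in and holds them, and the HSP60 barrel (Hspd1) with its HSP10 lid (Hspe1) folds them. Damaged or surplus proteins are removed by energy-driven proteases, ClpXP in the matrix, the m-AAA protease on the matrix face of the inner membrane and the i-AAA protease on its outer face, while OMA1 and HTRA2 act in the inner membrane and the space outside it. Several of these genes are known targets of the mitochondrial unfolded protein response, a nuclear programme set off by misfolded matrix proteins. Heart muscle is rich in mitochondria and depends on this quality control.

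Depth ran from 41979163 to 50764023 reads per library. The normalised counts of Rexo2 itself averaged 330 ± 37.3 (SD, n = 3) for controls and 292 ± 20.2 for the libraries labelled knockout, with overlap. The labels do not say which exons are deleted, so a count over the whole gene does not check them, and knockout refers to the label. Reads on features of mitochondrial DNA (mtDNA) made up 69.6 ± 0.35% of normalised counts in control and 71.6 ± 0.23% in knockout libraries, without overlap. Control 490 stood apart, at 14.5 and 15.0 in chi-square of gene counts per degree of freedom against the other controls, where the other within-group pairs lay between 3.52 and 6.36. Heart muscle markers had summed counts of 567449 to 623406 per library, and all 6 lay below 0 on the log2 scale without a call, with a median of -0.024. Among markers of other cells, the 5 macrophage and leukocyte genes all lay above 0, with a summed level of 1098 to 1235 counts in control and 1234 to 1284 in knockout libraries. The 5 smooth muscle and pericyte genes also all lay above 0, with summed levels of 16349 to 16616 and 16428 to 17068 counts. Their median was 0.049, beside 0.046 for the macrophage and leukocyte genes. Scaling the libraries to equal totals moved the median of all features to -0.069, so marker signs close to 0 depend on the scaling. Of the 5 skeletal muscle markers only Acta1, which heart muscle also expresses, passed the filter, at a log2 difference of 0.64 (limma adjusted p = 0.744), and Myh4 was at 0 in all 6 libraries. No marker of fibroblasts, endothelium, smooth muscle or red cells was called. Of the 5 fat markers only Fabp4 passed the filter, and it was not called.

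None of the 10 genes was called different between the groups. In limma's test over all 18250 features, with Benjamini-Hochberg adjustment, 0 of the 10 passed an adjusted p of 0.05, and for each it was 1.00. Over all features 0.0219% were called, 4 in number and all lower. At an unadjusted p under 0.05 there was 1 of the 10, Clpp, where 3.7% of all features reached that level, 1.72% as higher and 1.98% as lower ones. On whole reads recovered from the table, edgeR called 0 of the 10 beside 0.0274% of features, with 1 of the 10, Clpp, at an unadjusted p under 0.05. DESeq2 on those reads and the authors' deposited table each called 0 of the 9 that had an adjusted p, beside 0.437% of the 7550 features with one. None of the 10 had an unadjusted p under 0.05 there. The groups did not overlap in 1 of the 10, again Clpp, where this held for 9.51% of all features, 4.61% with the knockout libraries higher and 4.9% with them lower. The count among the 10 genes was thus near the background.

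Of the log2 fold changes, 9 lay above 0 and 1 below it, with a median of 0.026, beside a median of 0.00056 over all features. The range was from -0.16 for Spg7 to 0.22 for Clpp. The 95% intervals set what these libraries allowed, and the narrowest, for Hspa9, ran from 0.957-fold to 1.09-fold, while the widest, for Htra2, ran from 0.845-fold to 1.22-fold. Scaling the libraries to equal totals, in which the higher mtDNA share of the knockout libraries lowers every other feature, moved the median of all features to -0.069 and left 2 of the 10 genes above 0. Without control 490, 0 of the 10 were called, 7 lay above 0 and the median was 0.041.

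**Figure D1:**
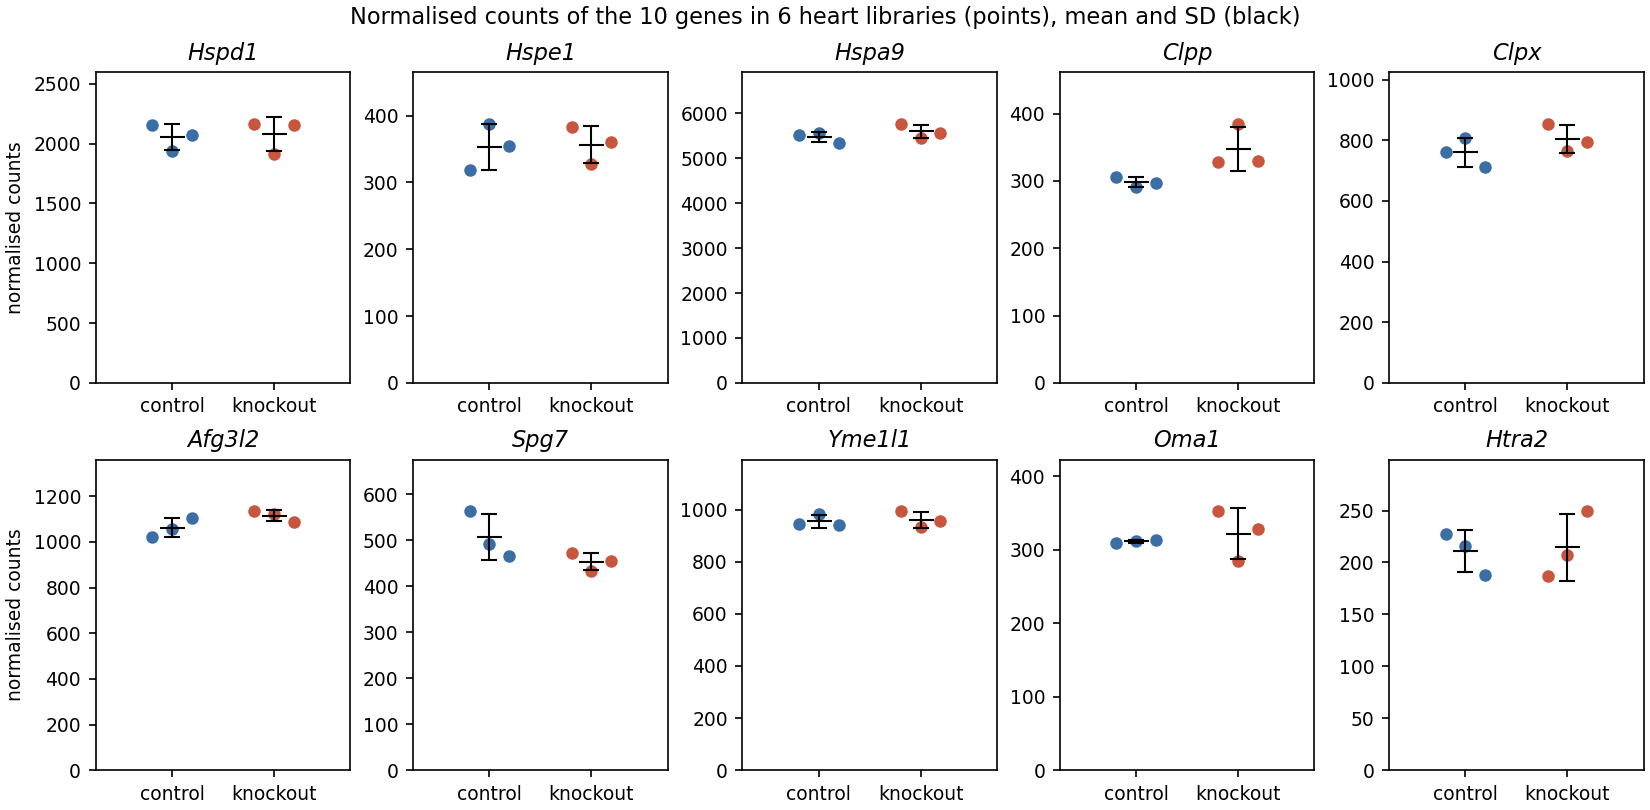
Normalised counts (vertical axes, starting at 0) of the 10 genes in the 3 control and 3 knockout libraries, with the mean and SD in black. Clpp is the gene whose groups are separate, at 291 to 306 counts in control and 328 to 384 in knockout libraries, and the points of the other 9 genes overlap.

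**Figure D2:**
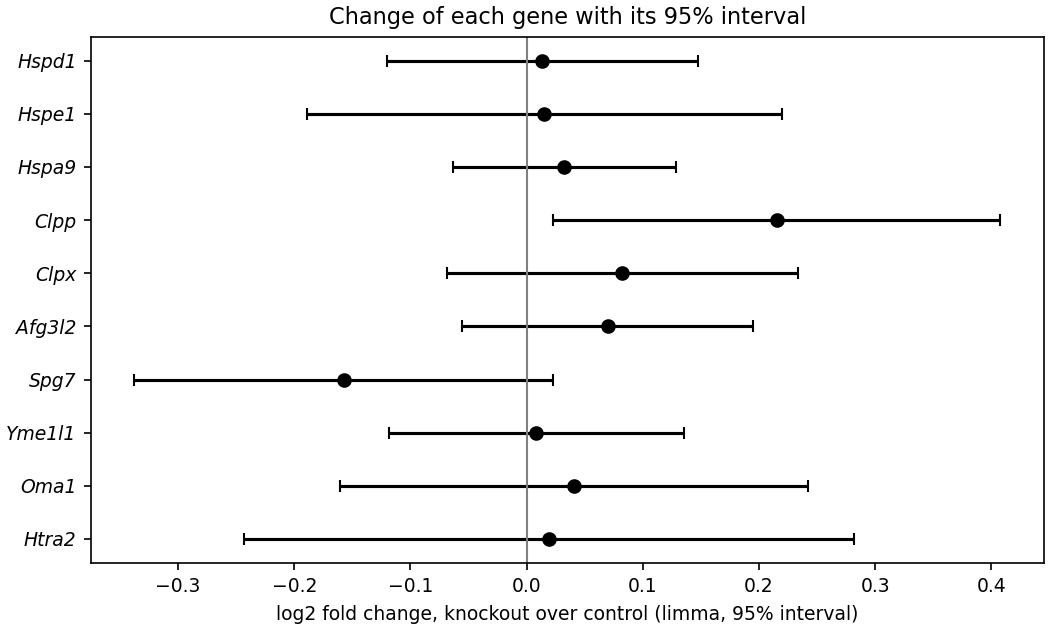
Log2 fold change of knockout over control for each gene (horizontal axis), with its 95% interval from limma. The interval of Clpp, from 0.023 to 0.41, lies above 0, and those of the other 9 genes include 0.

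The 3 matrix chaperone genes had log2 differences between 0.013 and 0.033, and under equal totals all 3 turned to the other side of 0. Hspd1 (ENSMUSG00000025980.14, chromosome 1, 55077833 to 55088243), the subunit of the HSP60 folding chamber, held 2159, 1941 and 2071 normalised counts in controls 490, 498 and 502. The knockout libraries 492, 499 and 501 held 2164, 1913 and 2156. Each group had 1 low library, control 498 and knockout 499, and the groups overlapped almost wholly. The means were 2057 ± 109 and 2077 ± 143 (SD, n = 3), a log2 difference of 0.013 (SE 0.062).

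Hspe1 (ENSMUSG00000073676.4, chromosome 1, 55088148 to 55091317), the HSP10 lid of that chamber, held 318, 387 and 354 counts in the controls, in the same order, and 382, 328 and 360 in the knockout libraries. Its lowest and highest libraries were both controls. The log2 difference was 0.015, and its 95% interval ran from -0.19 to 0.22.

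Hspd1 and Hspe1 lie head to head and are transcribed away from each other, and their annotated spans share 96 bases, from 55088148 to 55088243. RefSeq promoter windows (GRCm38.p6) run from 250 bases before to 50 after a start site, and Hspd1 has 2 of them. The window at the start of its annotated span, chr1:55088194-55088493 on the minus strand, shares 4 bases with that of Hspe1 and holds no heat shock match. The window at its other start, chr1:55087883-55088182, shares 285 bases with that of Hspe1. The Hspe1 window is printed here because it covers the stretch between the Hspe1 start and that second Hspd1 start. It lies on the plus strand at chr1:55087898-55088197, and capitals mark the run made by matches to the heat shock element core.
Hspe1: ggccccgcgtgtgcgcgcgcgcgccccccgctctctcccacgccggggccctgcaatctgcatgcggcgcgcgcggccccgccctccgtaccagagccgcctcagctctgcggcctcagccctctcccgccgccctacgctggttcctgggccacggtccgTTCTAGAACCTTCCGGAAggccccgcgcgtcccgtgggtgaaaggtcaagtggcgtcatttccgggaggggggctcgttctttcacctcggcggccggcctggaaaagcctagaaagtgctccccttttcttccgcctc
The searched forms of that core were GAANNTTC and TTCNNGAA, each of which reads the same on both strands. The window holds 3 matches, TTCTAGAA, GAACCTTC and TTCCGGAA, which begin 89, 84 and 79 bases before the Hspe1 start and overlap each other. The same run lies in the second Hspd1 window, with matches that begin 144, 139 and 134 bases before that start. GAANNTTC was found in 7.86% and TTCNNGAA in 8.52% of the 32851 RefSeq promoter windows of this length, and 3 or more matches of the pair in 0.256%. Between the 2 genes the counts had a Pearson r of -0.0032 and a Spearman rho of 0.029 over the 6 libraries (exact permutation p = 0.994 and 1.00, adjusted over 3 pairs 0.994 and 1.00). Without control 498 and knockout 499, the libraries farthest from the median of Hspd1, r was 0.0023. A correlation over 6 libraries of little spread has wide error.

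Hspa9 (ENSMUSG00000024359.9, chromosome 18, 34937414 to 34954351), the HSP70 of the import motor, held 5507, 5553 and 5343 counts in the controls, and 5759, 5453 and 5568 in the libraries of the knockout group. Knockout 492 was the highest and control 502 the lowest, with the rest mixed. The means were 5468 ± 110 and 5593 ± 155 (SD, n = 3), a log2 difference of 0.033 (SE 0.045).

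A large share of counts lay on pseudogenes of these chaperones, an observation made after the values were seen. Hspd1-ps3 (ENSMUSG00000058809.8, chromosome 11, 41498677 to 41500911) held 3914 ± 96.9 counts in control and 4060 ± 179 in knockout libraries (SD, n = 3). Hspa9-ps1 (ENSMUSG00000081729.1, chromosome X, 60577758 to 60579557) held 6450 ± 89.8 and 6560 ± 64.3. Among 12 features named as pseudogenes of the 10 genes, these 2 were the ones with a mean of at least 10, 6 were at 0 in all libraries and no library of the remaining ones exceeded 9.83 counts.

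The share of the summed counts that lay on the parent gene was 32.9% to 35.3% for Hspd1 and 45.3% to 47.0% for Hspa9 over the 6 libraries, and at least 98.3% for Hspe1. Such copies can be near-identical to the spliced transcript, and the sources used here do not say how reads that fit both were divided, so the levels of Hspd1 and Hspa9 are uncertain. With the counts of its pseudogenes added, the log2 difference was 0.038 for Hspd1, 0.028 for Hspa9 and 0.0088 for Hspe1.

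**Figure D3:**
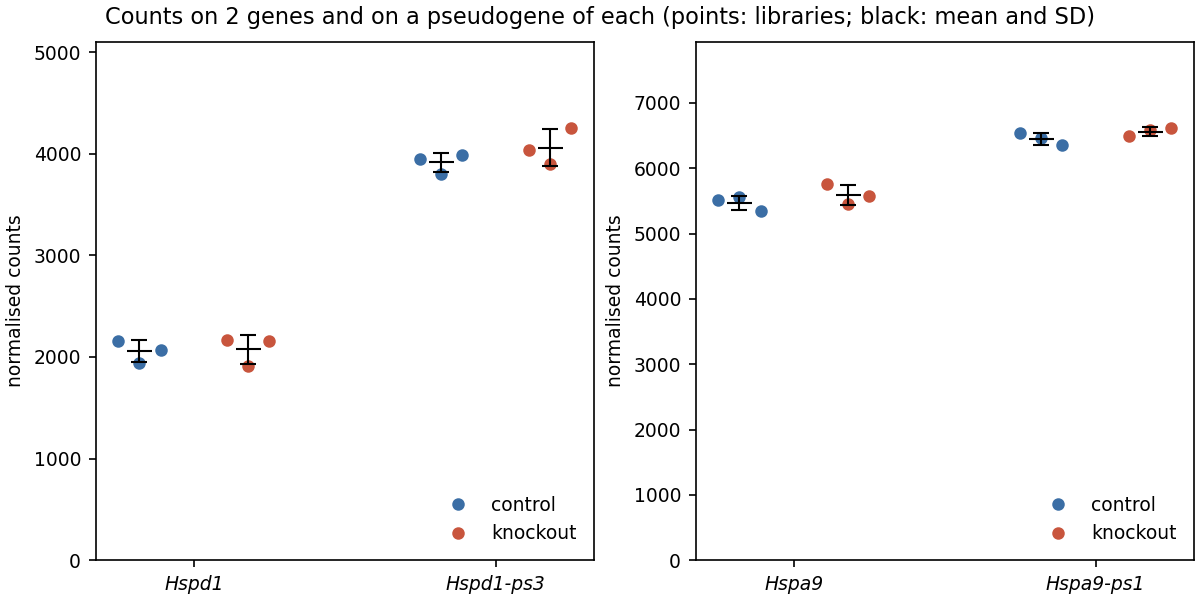
Normalised counts (vertical axes, starting at 0) on Hspd1 and Hspa9 and on 1 pseudogene of each, for 3 control and 3 knockout libraries, with the mean and SD in black. Hspd1-ps3 lies at 3805 to 4251 counts and Hspa9-ps1 at 6356 to 6613, with overlap between the groups for all 4 features.

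Within a library, the ratio of 2 genes does not depend on how libraries are scaled. The log2 ratio of counts of Hspd1 to Hspe1 was 2.54 ± 0.22 in control and 2.54 ± 0.040 in knockout libraries (SD, n = 3), which differ by -0.0020 (p = 0.9 in a 2-sided exact permutation test). The controls ran from 2.32 to 2.76, a wider range than the knockout libraries. For Hspa9 to Hspd1 the difference was 0.019 (exact permutation p = 0.7), with overlap. With 3 libraries against 3 the smallest p is 0.1, and adjusted over the 5 ratios computed the p-values of these 2 were 0.9 and 0.875.

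Clpp (ENSMUSG00000002660.8, chromosome 17, 56990264 to 56996371), the peptidase barrel of ClpXP, had the largest difference of the 10. It held 306, 291 and 297 counts in controls 490, 498 and 502. The knockout libraries 492, 499 and 501 held 328, 384 and 329. All 3 knockout libraries lay above all controls, and knockout 499 lay well above the other 2. The means were 298 ± 7.60 and 347 ± 32.0 (SD, n = 3), a log2 difference of 0.22 (SE 0.089), and its 95% interval ran from 0.023 to 0.41. The unadjusted limma p was 0.031 and the adjusted p 1.00, so the difference did not pass. Without knockout 499 the log2 fold change was 0.14 and the unadjusted limma p 0.165, with the adjusted p still at 1.00. Without control 498 or control 502 it was 0.20 or 0.21, with an unadjusted limma p of 0.083 or 0.063. Under equal totals Spg7, and not Clpp, was the 1 of the 10 at an unadjusted limma p under 0.05. In the authors' deposited table Clpp had a log2 fold change of 0.22 with an unadjusted p of 0.072 and an adjusted p of 1.00. Of the 5 macrophage and leukocyte markers 1, Adgre1, was also without overlap, at 92.0 ± 5.10 and 118 ± 13.1 counts, as were 9.51% of all features. The groups overlapped for Ptprc, Csf1r, Cd68 and Cd163, at log2 differences of 0.13, 0.046, 0.045 and 0.039. Markers of other cells without overlap were Mb of heart muscle at -0.096, Pdgfra of fibroblasts at -0.082 and Acta1 at 0.64. The part of cell makeup in the Clpp difference was not tested. In bulk RNA, fewer cells of a type and less RNA per cell cannot be told apart.

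Clpx (ENSMUSG00000015357.10, chromosome 9, 65294251 to 65330658), the ring that unfolds proteins and feeds them to CLPP, held 761, 806 and 712 counts in the controls, and 853, 764 and 795 in the libraries of the knockout group. Knockout 492 was the highest and control 502 the lowest, and the groups overlapped. The log2 difference was 0.082, and its 95% interval ran from -0.069 to 0.23. It was 0.037 without control 502, 0.039 without knockout 492 and 0.13 without control 498.

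The log2 ratio of Clpp to Clpx was -1.34 ± 0.11 in control and -1.21 ± 0.20 in knockout libraries (SD, n = 3), a difference of 0.13 with overlap (exact permutation p = 0.5, 0.875 adjusted over 5 ratios). It was 0.022 without knockout 499, 0.073 without control 498 and 0.21 without knockout 492. Over the 6 libraries Clpp and Clpx had a Pearson r of 0.12 and a Spearman rho of 0.086 (exact permutation p = 0.801 and 0.919, adjusted over 3 pairs 0.994 and 1.00). Without control 498 and knockout 499 the r was 0.91 over 4 libraries, so the value depends on which libraries enter.

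The promoter windows of this pair are printed for comparison with that of the chaperonin genes, since CLPP is named with HSP60 among products of the mitochondrial unfolded protein response. Both are on the plus strand, Clpp at chr17:56990014-56990313 and Clpx at chr9:65294010-65294309, and capitals mark matches to the heat shock element core in Clpp and to the NRF1 core in Clpx.
Clpp: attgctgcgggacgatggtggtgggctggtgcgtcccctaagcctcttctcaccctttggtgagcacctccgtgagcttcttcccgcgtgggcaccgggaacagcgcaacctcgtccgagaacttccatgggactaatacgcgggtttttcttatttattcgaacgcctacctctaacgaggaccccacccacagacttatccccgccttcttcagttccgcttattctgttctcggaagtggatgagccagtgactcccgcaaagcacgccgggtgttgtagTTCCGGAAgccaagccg
Clpx: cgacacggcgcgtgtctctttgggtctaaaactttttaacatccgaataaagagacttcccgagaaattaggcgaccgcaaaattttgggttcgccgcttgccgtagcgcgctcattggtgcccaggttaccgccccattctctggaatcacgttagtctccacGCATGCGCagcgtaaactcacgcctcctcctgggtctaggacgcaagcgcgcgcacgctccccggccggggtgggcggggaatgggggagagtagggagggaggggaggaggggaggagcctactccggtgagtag
Clpp holds 1 TTCNNGAA match, TTCCGGAA, which begins 33 bases after the start of the gene. Clpx holds 1 match to GCGCATGC, the NRF1 core, read there as its reverse complement 86 bases before the start, and that core was found in 2.71% of the promoter windows. TGATGCAAT, a composite site for CHOP and ATF4, was searched on both strands and was not among the letters of any window of the 7 genes with an entry, against 0.192% of all windows. The NF-Y box CCAAT, found in 37.4% of all windows, occurred in those of Yme1l1 and Clpx and in 1 of the 2 of Hspd1, the one at the start of its span, and not in the stretch printed for Hspe1. These are matches of letters only.

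The m-AAA protease genes differed from each other in direction, short of the test. Afg3l2 (ENSMUSG00000024527.9, chromosome 18, 67404764 to 67449192), the subunit that can form the ring alone, held 1023, 1058 and 1106 counts in the controls, and 1135, 1122 and 1088 in the libraries of the knockout group. Control 490 was the lowest and knockout 492 the highest, with 1 control above 1 knockout library. The log2 difference was 0.070 (SE 0.058), and under equal totals it was -0.00010.

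Spg7 (ENSMUSG00000000738.18, chromosome 8, 123065508 to 123097760), which encodes paraplegin, the partner subunit, held 563, 492 and 466 counts in the controls, and 471, 434 and 455 in the libraries of the knockout group. Control 490 was the highest, and control 502 lay just below knockout 492. The means were 507 ± 50.2 and 453 ± 18.8 (SD, n = 3), a log2 difference of -0.16, and the 95% interval ran from -0.34 to 0.023. The unadjusted limma p was 0.082 and the adjusted p 1.00. Without control 490 the log2 fold change was -0.080, and without control 502 it was -0.22 with an unadjusted limma p of 0.035, neither with an adjusted p under 0.05.

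The log2 ratio of Afg3l2 to Spg7 was the one ratio of 5 whose groups did not overlap. For controls 490, 498 and 502 it was 0.86, 1.10 and 1.25. Knockout 492, 499 and 501 had 1.27, 1.37 and 1.26, so control 502 lay close under the knockout libraries. The means were 1.07 ± 0.19 and 1.30 ± 0.063 (SD, n = 3), a difference of 0.23. Its exact permutation p was 0.1, the smallest that 3 against 3 can give, and 0.5 adjusted over the 5 ratios. Without control 490 the difference was 0.12. Over the 6 libraries the 2 genes had a Pearson r of -0.85 (exact permutation p = 0.028, adjusted over 3 pairs 0.083) and a Spearman rho of -0.6 (exact permutation p = 0.242, adjusted 0.725). Without control 490 and control 498, the libraries farthest from the median of Afg3l2, r was 0.080. Those are its 2 lowest libraries, so less of its range is left. With 1 library left out, r ran from -0.954 to -0.561. The value thus depends on which libraries enter. Afg3l1, the mouse paralog that can join the same ring, was at 477 ± 27.3 counts in control and 518 ± 26.2 in knockout libraries (SD, n = 3), a log2 difference of 0.12 with overlap.

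**Figure D4:**
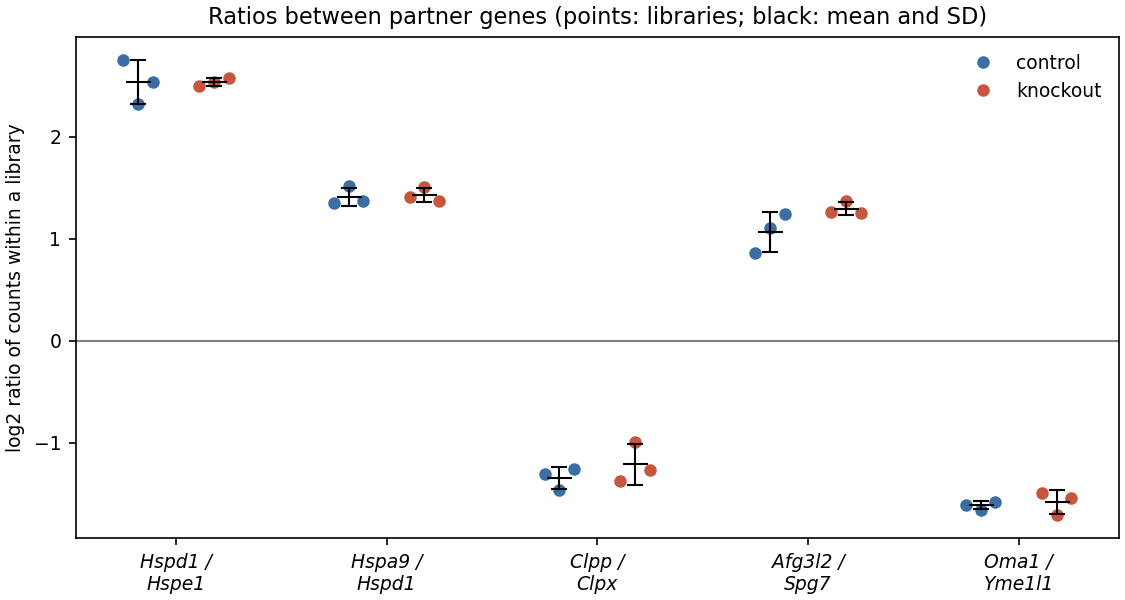
Log2 ratio of normalised counts of 2 genes within each library (vertical axis) for 5 pairs of partner genes, 3 control and 3 knockout libraries each, with the mean and SD in black. The groups are apart for Afg3l2 over Spg7, by a narrow gap between 1.25 and 1.26, and overlap for the other 4.

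For the 3 proteases active toward the intermembrane space the log2 differences lay between 0.0085 and 0.041, and under equal totals below 0. Yme1l1 (ENSMUSG00000026775.9, chromosome 2, 23155442 to 23199260), the i-AAA protease, held 944, 984 and 940 counts in the controls, and 994, 934 and 958 in the libraries of the knockout group. The lowest and the highest library were both knockout ones. The log2 difference was 0.0085 (SE 0.059).

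Oma1 (ENSMUSG00000035069.3, chromosome 4, 103311875 to 103371869), the stress-activated protease that cleaves OPA1 and DELE1, held 309, 311 and 313 counts in the controls, and 352, 284 and 328 in the libraries of the knockout group. The controls were nearly equal, at 311 ± 2.13 (SD, n = 3), while the knockout libraries spread on both sides of them, at 321 ± 34.5. The log2 difference was 0.041, and its 95% interval ran from -0.16 to 0.24. Relative to Yme1l1, which cleaves OPA1 at another site, the log2 ratio of Oma1 differed by 0.032 with overlap (exact permutation p = 0.7, 0.875 adjusted over 5 ratios).

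Htra2 (ENSMUSG00000068329.12, chromosome 6, 83051266 to 83054571), a serine protease of the intermembrane space, held 228, 216 and 188 counts in the controls, and 187, 207 and 249 in the libraries of the knockout group. It had the widest spread of the 10, and the groups overlapped throughout. The log2 difference was 0.019 (SE 0.12). Its annotated span overlaps Loxl3 over 1301 bases and Aup1 over 77, that of Yme1l1 overlaps Mastl over 583, and the sources used here do not say whether reads were counted by strand.

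The spread between libraries of 1 group, as the residual SD on the log2 scale, ran from 0.035 for Hspa9 to 0.18 for Htra2 with a median of 0.093. The 7992 tested features with means in the range of the 10 genes had a median of 0.090. The 3 features with the most similar pattern over the 6 libraries were Smim14, Lrch1 and Rps15a-ps4 for Hspd1, with a Pearson r of 0.995, 0.995 and 0.992. For Clpp they were Adamts6, H19 and C4b, with an r of 0.984, 0.983 and 0.982. These are the top of 13590 features compared over 6 points. None of the other 9 genes was among the 3 for either, and the nearest to Hspd1 was Oma1, with an r of 0.74 and rank 716.

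Partner genes of this machinery, taken from lists made by function, held 1 called gene. The lists were made with earlier results of these data known, so a called gene in them is not a finding of the lists. Ghitm, an inner membrane protein also known as TMBIM5 that binds AFG3L2 and restrains the m-AAA protease, fell from 4746 ± 47.8 to 2996 ± 178 normalised counts (SD, n = 3), a log2 difference of -0.67 (limma adjusted p = 9.58e-05). The controls held 4757, 4788 and 4694 counts and the knockout libraries 3179, 2823 and 2985, far apart from them. Without a trended prior in limma the call was lost (adjusted p = 0.589). In the list of 7 scaffolds, partners and regulators 1 was called lower and 0 higher, where 0.0219% of all features were called. The median log2 fold change of the list was 0.0099. The groups did not overlap in 3 of the 7, Ghitm, Maip1 at -0.16 and Chchd4 at 0.10, where this held for 9.51% of all features. The prohibitin genes Phb and Phb2, whose ring surrounds the m-AAA protease, were at -0.0064 and 0.016.

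Other mitochondrial chaperones and cochaperones had 0 of 10 called, 8 above 0 and a median of 0.038. Grpel1, the nucleotide exchange factor of HSPA9, was at 0.10, its J-domain partner Dnaja3 at 0.049, and the disaggregase Clpb at 0.093 without overlap between groups. Other mitochondrial proteases had 0 of 13 called, 8 above 0 and a median of 0.056. Lonp1, the other large protease of the matrix, was at 0.029 with 1299.5 ± 13.6 counts in the controls and 1326 ± 12.8 in the others, without overlap, and Pmpca and Pmpcb, the subunits of the peptidase that removes import signals, were at -0.054 and 0.10. The groups did not overlap for 1 of the 10 chaperones, Clpb, and for 3 of the 13 proteases. The 3 proteases were Lonp1 and Parl, at 0.15, with the knockout libraries higher, and Lactb, at -0.079, with them lower. Over all features 9.51% were without overlap and 0.0219% were called. None of these lists had a member at an unadjusted limma p under 0.05.

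Genes whose products these proteases cleave or degrade had 0 of 8 called by limma, 3 above 0 and a median of -0.027. Opa1, the fusion protein of the inner membrane, was at -0.036, and Dele1, which relays mitochondrial stress after cleavage, at -0.019. Pink1, the mitophagy kinase, was at 6994 ± 492 counts in control and 5656 ± 83.4 in knockout libraries (SD, n = 3) without overlap, a log2 difference of -0.30 (limma adjusted p = 0.091). In the authors' deposited table it was called, at -0.31 with an adjusted p of 0.00061.

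Chaperones outside mitochondria had no call either. Of 16 cytosolic chaperones 7 lay above 0, with a median of -0.0064. The abundant ones were near 0, with Hspa8 at -0.049, Hsp90ab1 at -0.0025 and the small heat shock protein gene Cryab at 0.072. Of 12 chaperones of the endoplasmic reticulum 10 lay below 0, with a median of -0.077. There the membrane lectin Canx was at -0.24 without overlap (limma adjusted p = 0.378) and the HSP70 gene Hspa5 at -0.16 (limma adjusted p = 1.00), while Calr was at -0.083. Both Canx and Hspa5 had an unadjusted limma p under 0.05, which 1.98% of all features reached as lower ones. The 2 genes above 0, Dnajb9 at 0.11 and Dnajb11 at 0.14, were also without overlap, with the knockout libraries higher. Without control 490, Hspa5 was at -0.082 and Calr at -0.038. Of 6 transcription factors linked to the mitochondrial unfolded protein response 5 lay below 0 and 0 were called. Atf4 was at -0.040, Cebpb at -0.30 and Hsf1 at 0.00026. The groups did not overlap for 2 of the 6, Atf5 at -0.16 and Nrf1 at -0.11, with the knockout libraries lower. That held for 9.51% of all features, 4.9% with the knockout libraries lower. With 1 library left out, Cebpb lay between -0.56 without knockout 501 and -0.16 without knockout 499. Under equal totals, values in all of these lists move down together, by about the -0.069 of all features, so signs close to 0 depend on the scaling. Whether any of these lists differs from the 10 genes was not tested.

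**Figure D5:**
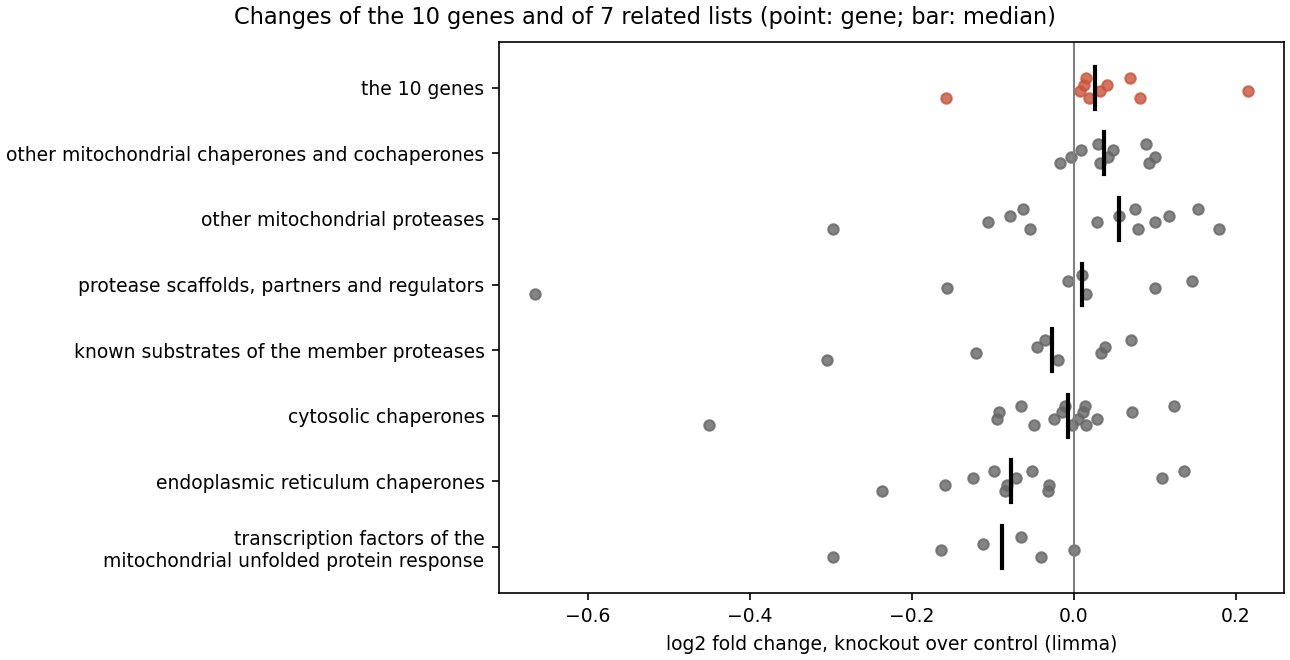
Log2 fold changes of knockout over control (horizontal axis, limma) for the 10 genes in red and for 7 related lists in grey, 1 point per gene, with a black bar at each median. The medians run from -0.088 for the transcription factors to 0.056 for other mitochondrial proteases, and the point farthest to the left is Ghitm at -0.67.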

How the data were processed

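The values are signal per gene, whole-heart gene counts divided by 1 size factor per library, which the authors deposited as normalised counts. Per the submitters' processing notes the tools were featureCounts, bedtools, Bowtie2 2.3.4.1, DESeq2 1.22.2 and R 3.5.2, and the builds mm10 and GRCm38. The authors also deposited a DESeq2 table with log2 fold changes, a test score and p-value columns, cited only as theirs. Dividing each library by the worth of 1 read gave whole reads for 100% of 156689 nonzero values (tolerance 0.01).

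Symbols were joined for 54686 of 54715 Ensembl features, ignoring version numbers. limma 3.58.1 with a trended prior, 2-sided, was run in R 4.3.3 on log2(value + 1), a scale that understates changes of low genes, with genotype alone as a term and a Benjamini-Hochberg threshold of 0.05. edgeR 4.0.16 and DESeq2 1.42.0 on the recovered reads were alternatives. Ratios and correlations within libraries used exact permutation tests. Named outside the 10 genes were the 3 most abundant members of each of 7 lists, called members and those at an unadjusted p under 0.05. Afg3l1, Maip1, Chchd4, Parl, Lactb, Dnajb9, Dnajb11, Atf5 and Nrf1 were added after their values were seen. So were Mb, Pdgfra, the single macrophage and leukocyte markers and the pseudogenes. The 10 genes and the lists were chosen with earlier results of these data known. Positions and promoter windows are from RefSeq, GRCm38.p6, with windows for 7 of the 10 genes used here.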

Additional observations from a re-analysis of the deposited data

How the results depend on the processing

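None of the 10 genes was called under any of 18 alternatives (other pseudocounts, filters, scalings and priors, edgeR, DESeq2, the authors' deposited table and each library left out), with adjusted p-values of at least 0.556 where 1 was given. DESeq2 and the authors' table gave none for Htra2. Clpp stayed above 0 and Spg7 below 0 in all 18. The median log2 fold change of the 10 ran from -0.0021 to 0.068 with 1 library left out and was -0.044 under equal totals. Adding pseudogene reads to the parent, chosen after seeing the data, kept Hspd1, Hspe1 and Hspa9 above 0. No paired analysis was possible because the table columns carry no replicate numbers.

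Over all features, limma called 0 higher and 4 lower. DESeq2 and the authors' deposited table each called 4 higher and 29 lower, edgeR 2 and 3, robust moderation 2 and 10, no filter 1 and 11, equal totals 1 and 36, TMM scaling 1 and 5, equal totals without mtDNA 1 and 3, and limma without a trend 0 and 0. With 1 library left out, 0 to 1 were called higher and 1 to 7 lower.

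Equal totals turned the sign of Hspd1 (-0.057), Hspe1 (-0.055), Hspa9 (-0.038), Afg3l2 (-0.00010), Yme1l1 (-0.062), Oma1 (-0.029), Htra2 (-0.050), Dnaja3 (-0.021), Lonp1 (-0.041), Phb2 (-0.054) and Hsf1 (-0.070), the last also under TMM scaling (-0.00032). Equal totals without mtDNA turned Phb (0.021), Dele1 (0.0087) and Hsp90ab1 (0.025). With 1 library left out, the log2 fold change ran from -0.028 to 0.072 for Hspd1, -0.058 to 0.084 for Hspe1, -0.015 to 0.030 for Yme1l1, -0.027 to 0.127 for Oma1, -0.094 to 0.113 for Htra2, -0.056 to 0.068 for Phb, -0.016 to 0.051 for Phb2, -0.037 to 0.00052 for Dele1, -0.031 to 0.017 for Hsp90ab1, -0.106 to 0.015 for Atf4 and -0.025 to 0.032 for Hsf1. On 1 side of 0 it ran from 0.011 to 0.051 for Hspa9, 0.141 to 0.254 for Clpp, 0.037 to 0.126 for Clpx, 0.043 to 0.099 for Afg3l2, -0.216 to -0.080 for Spg7, -0.227 to -0.082 for Hspa5, -0.158 to -0.031 for Calr and -0.561 to -0.157 for Cebpb. Ghitm was not called without a trend (limma adjusted p = 0.589). Pink1 was called under DESeq2, equal totals, robust moderation and no filter as well as in the authors' table, and Canx under equal totals (limma adjusted p = 0.045). The causes were not tested.

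The ratio differences ran, with 1 library left out, from -0.112 to 0.106 for Hspd1 to Hspe1, from -0.021 to 0.072 for Hspa9 to Hspd1, from 0.022 to 0.215 for Clpp to Clpx, from 0.123 to 0.315 for Afg3l2 to Spg7 and from -0.012 to 0.097 for Oma1 to Yme1l1. The Pearson r ran from -0.491 to 0.421 for Hspd1 with Hspe1, from -0.248 to 0.557 for Clpp with Clpx and from -0.954 to -0.561 for Afg3l2 with Spg7. Under equal totals, which gives genes of a library a shared shift, these were 0.102, -0.417 and -0.394. With a median SE of 0.077 for the 10 genes, small changes lay beyond what 3 libraries per group can call.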
